A study of Mus musculus with 12 samples.

Results

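Divergent gene pairs lie head to head on opposite strands and share the short stretch between their starts as a bidirectional promoter. They were chosen here as pairs of autosomal protein-coding genes of GENCODE release M21 (GRCm38, mm10) whose annotated 5′ ends point away from each other, lie at most 1000 bp apart and belong to gene bodies that do not overlap. The rule found 734 pairs with 1448 genes, or 6.96% of the 20807 autosomal protein-coding genes, and 20 genes belonged to more than 1 pair. The starts lay between 1 and 987 bp apart, with a median of 128 bp. Each pair was measured as 1 region that reached 2 kb beyond both starts, within a table of 20093 promoter regions in which every other protein-coding gene had 2 kb on either side of its start (transcription start site, TSS).

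H4K12ac, the acetylation of lysine 12 of histone H4, was mapped by ChIP-Seq in sorted neuronal nuclei of whole hippocampi, from 5 *Tip60* cKO mice and 5 control mice. Both groups carried floxed alleles of *Tip60* (*Kat5*), which encodes a lysine acetyltransferase, and both received tamoxifen. *Tip60* cKO mice also carried the CaMKCreERT2 transgene, which controls lacked. The labels give males of the strain C57BL/6J at 3 months of age, whereas the methods of the study give animals of either sex on a C57BL/6 N background. The Camk2a promoter drives the recombinase in excitatory forebrain neurons, so that sorted neuronal nuclei also hold neurons that keep the gene. Input chromatin was pooled, and the peaks of all mice of a genotype were called against the same input library.

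The libraries held 22864189 to 37923809 tags and yielded 64245 to 136409 peaks each. *Tip60* cKO replicate 5 had the fewest tags and the fewest peaks. Of 8 neuronal marker genes, 8 had a peak at their start in all 10 lists, against 0 of 4 for astrocytes, 2 of 5 for oligodendrocytes, 0 of 4 for microglia and 0 of 3 for endothelial cells. Some non-neuronal markers had peaks in part of the lists, and their part in the differences between genotypes was not tested. *Gfap* had a peak in 5 control and 4 *Tip60* cKO lists, with 19.6% and 4.6% of its region in peaks, *P2ry12* in 4 and 1, *Slc1a3* in 2 and 1, and *Cldn5* and *Flt1* each in 0 and 1. *Kat5* itself had a peak in all 10 lists, which does not test its deletion. Regions with no peak fell short of the calling threshold, which depends on library depth, and fewer acetylated cells cannot be told apart from less acetylation per cell.

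Bidirectional promoters are known to be rich in CpG and mostly without a TATA box, and to serve housekeeping genes of DNA repair, mitochondria and RNA processing. Acetylated nucleosomes flank a promoter, whose open centre is bound by transcription factors and the polymerases of both directions. Acetylation of H4K12 is known to accompany transcription and is written by several acetyltransferases, TIP60 among them.

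To show what lies between such starts, the plus strand of GRCm38 is given for the 7 pairs whose rank score (the percentile of peak strength among all regions of a library) changed with genotype and for the 2 pairs with the smallest p-value in peak coverage. No annotated gene overlapped any of these stretches. Capitals mark matches, on either strand, to fixed letters. The letters searched were CCGGAAG for the core of ETS factors such as GABPA, GGGCGG for the GC box of SP1, CCAAT for the box of NFY, TGACGTCA for CREB/ATF, TATAAA for the TATA box, CACGTG for the E-box and the longer motifs of NRF1, YY1 and THAP11/ZNF143, of which the last was added after it was seen in these stretches. CCAAT boxes on both strands overlapped at *Zcchc17*/*Snrnp40*.
Lrwd1/Alkbh4, chr5:136136075-136136145: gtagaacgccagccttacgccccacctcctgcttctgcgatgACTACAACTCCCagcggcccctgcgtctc
Xab2/Pet100, chr8:3621317-3621547: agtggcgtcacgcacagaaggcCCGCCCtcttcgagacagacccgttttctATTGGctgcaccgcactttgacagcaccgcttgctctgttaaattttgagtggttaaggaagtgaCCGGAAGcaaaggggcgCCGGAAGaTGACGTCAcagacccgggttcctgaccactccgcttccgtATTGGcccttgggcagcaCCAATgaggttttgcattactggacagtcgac
Hras/Lrrc56, chr7:141194006-141194156: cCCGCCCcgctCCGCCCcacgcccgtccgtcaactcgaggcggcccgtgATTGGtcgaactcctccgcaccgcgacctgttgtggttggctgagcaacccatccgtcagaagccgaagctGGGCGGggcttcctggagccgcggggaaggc
Zcchc17/Snrnp40, chr4:130359944-130360131: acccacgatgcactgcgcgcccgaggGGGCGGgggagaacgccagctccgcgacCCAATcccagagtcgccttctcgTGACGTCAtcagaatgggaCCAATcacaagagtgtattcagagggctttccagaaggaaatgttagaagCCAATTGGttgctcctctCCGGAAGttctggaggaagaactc
Nmnat1/Lzic, chr4:149485203-149485228: ccacacagCCGGAAGtgcgcgaatcc
Larp7/Zgrf1, chr3:127553350-127553488: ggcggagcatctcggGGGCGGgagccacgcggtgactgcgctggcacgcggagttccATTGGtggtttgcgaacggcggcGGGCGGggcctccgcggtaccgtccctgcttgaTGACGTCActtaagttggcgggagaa
Asl/Crcp, chr5:130029248-130029289: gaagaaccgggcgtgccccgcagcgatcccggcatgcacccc
Pus7l/Irak4, chr15:94543548-94543642: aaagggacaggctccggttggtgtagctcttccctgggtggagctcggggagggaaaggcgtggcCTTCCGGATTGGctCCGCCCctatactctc
Nop16/Higd2a, chr13:54590091-54590206: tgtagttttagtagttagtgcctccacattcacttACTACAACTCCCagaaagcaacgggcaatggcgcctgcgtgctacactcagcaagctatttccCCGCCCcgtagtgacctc

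Over all pairs, the 300 bases at the midpoint held the ETS/GABPA core in 28.3% (208 of 734). The same letters stood in 27.6% of the windows from 250 bases before to 50 after the starts of the paired genes, in 8.38% of such windows at 14924 lone promoters (protein-coding starts with no other annotated start within 2 kb), in 15.5% of the 4654 CpG-rich lone promoters and in 11% of all protein-coding promoters. CpG-rich promoters were those with an observed over expected CpG ratio of at least 0.6 and at least 55% G and C. They made up 74.9% of paired starts and 31.2% of lone starts, a split chosen after the data were seen. The YY1 letters stood in 2.86% of pairs, 1.10% of CpG-rich lone and 0.779% of all promoters. The THAP11/ZNF143 letters stood in 3.68% of pairs, 1.72% of CpG-rich lone and 1.36% of all promoters.

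The TATA box letters were found in 4.50% of pairs, 4.62% of CpG-rich lone promoters, 14.5% of all lone promoters and 12.7% of all promoters. GC boxes stood in 67.8% of pairs, against 81.5% of CpG-rich lone and 43.7% of all promoters. CCAAT boxes stood in 44.6%, 35.9% and 38.6%, the CREB/ATF letters in 4.50%, 3.78% and 2.43%, the NRF1 letters in 3.00%, 2.26% and 1.25%, and E-boxes in 10.9%, 12.1% and 7.82% of the same 3 sets. Peak coverage in controls was 26.9% in pairs with and 23% in pairs without the YY1 letters, 20.9% with and 25% without a CCAAT box, and 23.8% with and 22.9% without the ETS/GABPA core. A match is a description of the sequence and not a binding site.

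Most pairs carried H4K12ac in every mouse. A peak was present in all 10 lists at 546 of 734 pairs (74.4%), against 45.2% of all regions of the table. Of the rest, 84 pairs had a peak in 9 lists and 24 had none in any list. In controls 92.1 ± 1.12% of the 1448 paired starts had a peak within 2 kb (SD, n = 5), compared with 51.3 ± 0.880% of lone starts, 77.7 ± 0.906% of 860 protein-coding starts divergent from a non-coding gene and 65.0 ± 1.23% of 749 starts of protein-coding pairs over 1000 and up to 5000 bp apart. The paired starts were above each of these classes in 10 of 10 lists, as they were above lone starts within the CpG-rich promoters (95.3 ± 0.624% against 88.6 ± 0.837%).

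Peaks were frequent at paired starts, but among CpG-rich promoters they did not cover more of the window than at lone starts. Among CpG-rich promoters the share of the window in peaks was 25.2 ± 2.65% at paired and 26.3 ± 2.34% at lone starts in controls, and the paired value was the lower in 10 of 10 lists. The difference was between 0.555 and 2.36 percentage points. Against CpG-rich starts with a divergent non-coding gene (27.6 ± 2.69%) paired starts were again lower in 10 of 10 lists. Over promoters of any CpG content the windows with a peak had 26.1 ± 2.57% at paired and 27.5 ± 2.29% at lone starts. With windows without a peak included, the values were 24.1 ± 2.64% and 14.1 ± 1.36%. Starts with a divergent non-coding gene then had 22.7 ± 2.33%, and paired starts were above them in 10 of 10 lists. The classes share their libraries, and no test was made on them.

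H4K12ac formed a pair of shoulders with a valley between them (the profile by distance from the start). Both genes of each pair enter this profile, so shoulders of near equal height are built into it. They do not show symmetry at single pairs. Of 546 pairs with a peak in all lists, 215 differed by over 20 percentage points between the sides in controls. In controls 69.0 ± 3.80% of paired genes were under a peak 250 bp into the gene, 62.7 ± 4.55% at 350 bp before the start, on the side of the partner, and 22.9 ± 4.17% at 50 bp before the start (SD, n = 5). At CpG-rich lone genes the profile was lopsided, with 78.7 ± 1.90% at 200 bp into the gene and 51.5 ± 3.60% at 300 bp before it, and the valley was shallower, at 37.4 ± 4.03%. The paired genes were not filtered in this way (74.9% were CpG rich), so pairing and CpG content are mixed in these levels. Genes divergent from a non-coding gene had 64.8 ± 2.28% at 250 bp into the gene, 45.5 ± 3.61% at 300 bp before it and 24.9 ± 3.45% at 50 bp before it, so that their valley lay within the spread of that of the pairs. In *Tip60* cKO the shoulders of the pairs stood at 58.9 ± 9.19% and 52.2 ± 8.87%, and the valley at 17.2 ± 4.43%. Those of CpG-rich lone genes stood at 71.9 ± 7.40% and 43.0 ± 7.43%.

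**Figure D1:**
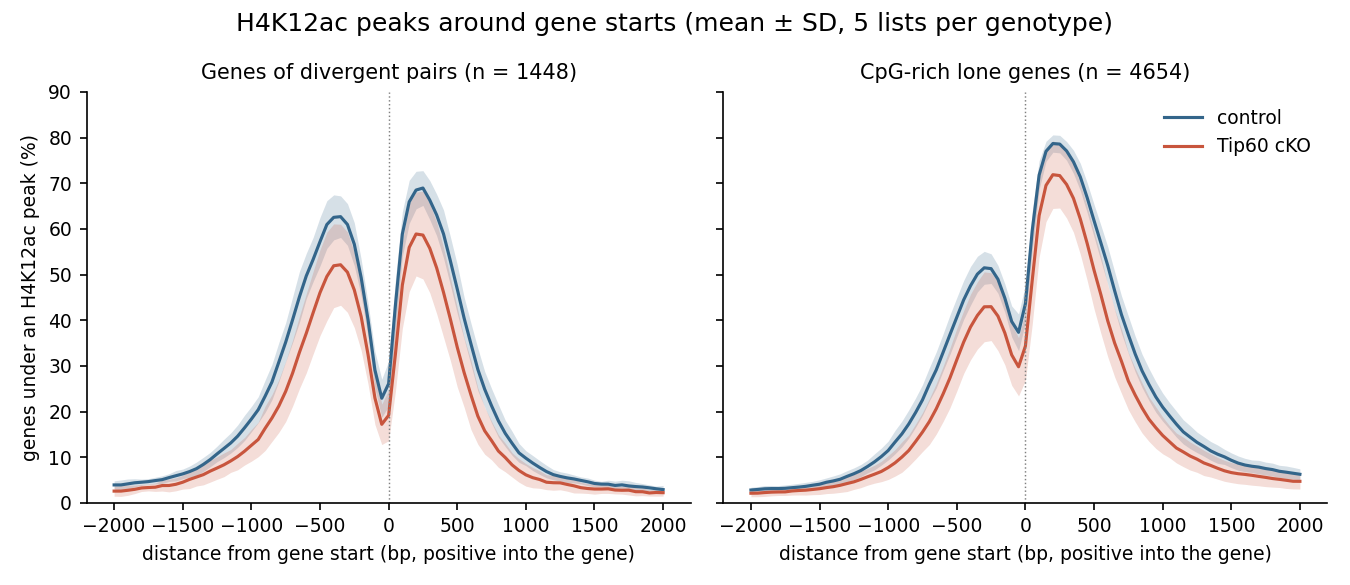
Share of genes (%) under an H4K12ac peak by distance from the gene start (bp, positive into the gene), for the 1448 genes of divergent pairs and the 4654 CpG-rich lone genes. Lines are means and bands SD of 5 lists per genotype. Both genes of each pair are counted, which builds in 2 shoulders of near equal height, while lone genes have a high shoulder inside the gene and a low one before it.

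The stretches between the starts made up 4.57% of the bases of all pair regions. In controls 3.93 ± 0.769% of strongest summits were there, 47.3 ± 0.509% lay on the side of the minus-strand gene and 48.8 ± 0.972% on that of the plus-strand gene. The median summit lay 242.5 ± 4.66 bp into its gene in controls and 231.6 ± 6.31 bp in *Tip60* cKO. The control values ran from 236.5 to 248 bp and those of *Tip60* cKO from 225 to 238 bp, and they overlapped.

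The share of the stretch between the starts in peaks differed with its length (the plot by distance between the starts). In controls 22.8 ± 6.27% of its bases were in peaks at the 306 pairs up to 100 bp apart. The share was 17.4 ± 2.66% at the 200 pairs over 100 and up to 200 bp apart, 21.3 ± 2.88% at the 96 pairs up to 300 bp apart, 33.5 ± 3.26% at the 64 pairs up to 500 bp apart and 38.2 ± 4.51% at the 68 pairs up to 1000 bp apart. The 2 kb on both sides stayed between 20.8 ± 2.48% and 24 ± 2.52% over the same pairs. The sides include bases far from the starts, where peaks are rarer (9.78 ± 1.63% of paired genes at 1000 bp into the gene), so the levels of sides and stretch are not comparable at equal distance. The share of pairs with a peak went from 94.9 ± 1.07% at 306 pairs up to 100 bp apart to 85.0 ± 1.23% at the most distant pairs, whose median GC content was 52.3% against 64.7%. Base composition and distance moved together and their parts were not tested. Just inside the limit of 1000 bp, *Btf3l4*/*Txndc12* (987 bp) had 25.1% of its region in peaks in controls, and just outside it *Gpr108*/*Trip10* (1009 bp) had 29%.

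**Figure D2:**
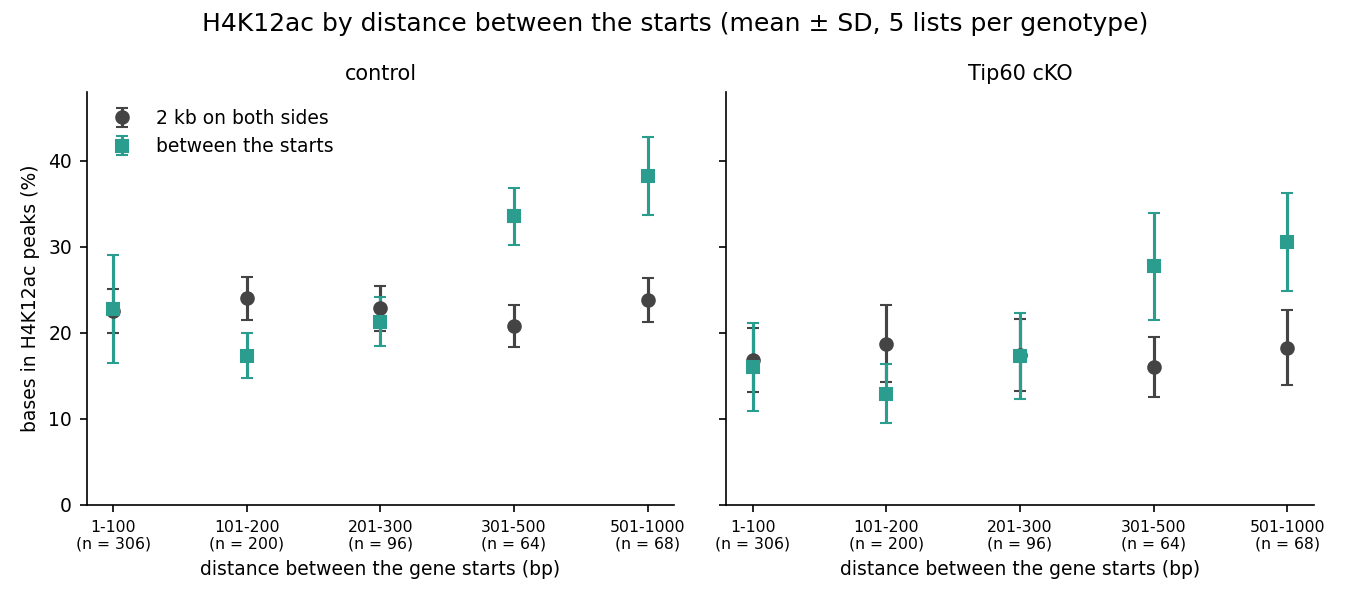
Share of bases in H4K12ac peaks (%) in the 2 kb on both sides (circles) and in the stretch between the starts (squares), by distance between the starts (bp), for control and *Tip60* cKO mice. Points are means and bars SD of 5 lists, and the stretch between the starts has its highest values in the 2 classes over 300 bp, while the sides, which reach farther from the starts, vary little.

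The sides of a pair were often unequal, and the same side led in both genotypes. Of the 546 pairs with a peak in all lists, 251 had more coverage on the same side in every list, and 470 (86.1%) had the leading side of controls also in *Tip60* cKO. The longer gene was on the leading side in 47.4% of the 251. At *Uqcrh*/*Lrrc41*, which joins a subunit of respiratory complex III to a ubiquitin ligase adaptor, peaks covered 87.7% of the *Lrrc41* side and 5.61% of the *Uqcrh* side in controls, and 84.4% and 0.290% in *Tip60* cKO. *Srgap2*/*Fam72a*, whose first gene shapes dendritic spines, had 84.7% on the *Srgap2* side and 0% on the other in controls, with 70.7% and 0% in *Tip60* cKO. The other pairs with the widest gap had 87.0% and 10.2% (*4933427D14Rik*/*Txndc17*), 70.1% and 0% (*Obsl1*/*Inha*) and, on the plus-strand side, 67.4% against 0% (*Ccdc148*/*Pkp4*, a pair that includes a plakophilin).

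Pairs with the highest control rank score were *Pafah1b2*/*Sik3* (98.2 ± 1.32), *Emc10*/*Fam71e1* (96.6 ± 1.76), *Zbtb25*/*Zbtb1* (96.5 ± 1.70), *Pcmt1*/*Lats1* (96.1 ± 4.58) and *Aamdc*/*Rsf1* (95.6 ± 3.43). The rank score is the percentile of the fold enrichment of the strongest peak of a region among all 20093 regions in the same library, with 0 for a region without a peak. *Sik3* encodes a salt-inducible kinase, *Lats1* a kinase of the Hippo pathway and *Rsf1* a subunit of a chromatin remodeller. At the other end stood the 24 pairs without a peak, of which the first by position were *4931428L18Rik*/*Pih1d3*, *Col4a4*/*Col4a3*, *Amdhd1*/*Ccdc38* and *Aspa* with its annotated partners *Spata22* and *Gm49340*. *Col4a3* and *Col4a4* encode collagens of basement membranes, *Aspa* an enzyme of oligodendrocytes and *Spata22* a protein of meiosis.

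Well-known divergent pairs ranged from no peak to a control rank score of 94.5. *Gart*/*Son*, a purine synthesis enzyme beside a splicing protein, had a control rank score of 94.5 ± 6.53 and 92.1 ± 3.47 in *Tip60* cKO. *Brca1*/*Nbr1* had 81.3 ± 8.58 and 81.1 ± 13.6, with 40.9% of the *Nbr1* side but 0% of the *Brca1* side in peaks in controls. *Hadha*/*Hadhb*, both subunits of the mitochondrial trifunctional protein of fatty acid oxidation, had 78.2 ± 5.14 and 80.2 ± 13.7. The scores were 60.8 ± 11.8 and 57.5 ± 4.85 at *Mrps12*/*Sars2*, which encode a mitochondrial ribosomal protein and the mitochondrial seryl-tRNA synthetase. *Atm*/*Npat*, the kinase of the DNA damage response and an activator of histone genes, had 53.4 ± 9.10 and 60.8 ± 13.4. *Mcm4*/*Prkdc*, a replicative helicase subunit and the DNA-dependent protein kinase, had a peak in 3 control and 4 *Tip60* cKO lists. None of these passed the threshold of either test described below.

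Peaks covered less of the pair regions in most *Tip60* cKO mice, but the genotypes overlapped. The share of pair regions in peaks was 19.3, 21.7, 24.5, 25 and 25.1% in the 5 control mice and 11.7, 16.9, 18, 18.9 and 23% in the 5 *Tip60* cKO mice. The means were 23.2 ± 2.55% and 17.7 ± 4.06% (SD, n = 5), and *Tip60* cKO replicate 1 lay within the range of the controls. Other protein-coding promoters had 16.0 ± 1.57% and 12.7 ± 2.61%, so that the pairs stood at 1.44 ± 0.0314 times the other promoters in controls and at 1.39 ± 0.0395 times in *Tip60* cKO. The median difference over the 702 pairs with a peak in at least 2 lists was -5.29 percentage points, beside -4.65 over all 12690 such regions.

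The presence and rank of peaks differed less, but neither is comparable in size with coverage. Presence was near its upper limit. The rank score is set among all regions of the same library, so a loss shared by all regions shows little in it. A peak was found at 92.1 ± 1.10% of pairs in controls and 89.3 ± 4.51% in *Tip60* cKO, where replicate 5 had 81.6% and the other 4 mice 90.1 to 93.6%. The mean rank score of the pairs was 65.0 ± 1.07 in controls and 63.7 ± 2.60 in *Tip60* cKO. Without *Tip60* cKO replicate 5 the difference in rank score went from -1.24 to -0.200 percentiles and the difference in presence from -2.83 to -0.920 percentage points. Within the first sequencing lane (lane 7, replicates 1 to 3) the rank score was 0.150 percentiles higher in *Tip60* cKO, and within lane 8 (replicates 4 and 5) the difference was -3.32 percentiles. Coverage differed by -4.23 percentage points in lane 7 and by -7.34 in lane 8.

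The mean share of pairs with a peak on both sides was lower in *Tip60* cKO. Of the pairs with a peak, 60.9, 68.2, 72.4, 72.4 and 73.5% had a peak on both sides in control mice and 40.7, 57.0, 58.2, 64.4 and 69.6% in *Tip60* cKO mice. These ranges overlapped. Among the pairs with a peak in a list, a single peak reached over both starts at 14.4 ± 3.62% in controls and 10 ± 3.48% in *Tip60* cKO. CpG-rich lone promoters moved likewise, with a peak on both sides of the start at 78.6 ± 3.21% and 70.1 ± 7.93%. Both sides had lower mean coverage in *Tip60* cKO at 356 of the 546 pairs with a peak in all lists (65.2%), against 63.5% of 5823 lone promoters. The Pearson correlation of the changes on both sides was 0.0697 across the 546 pairs and 0.0883 across the lone promoters, which is a description across regions that share their libraries.

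**Figure D3:**
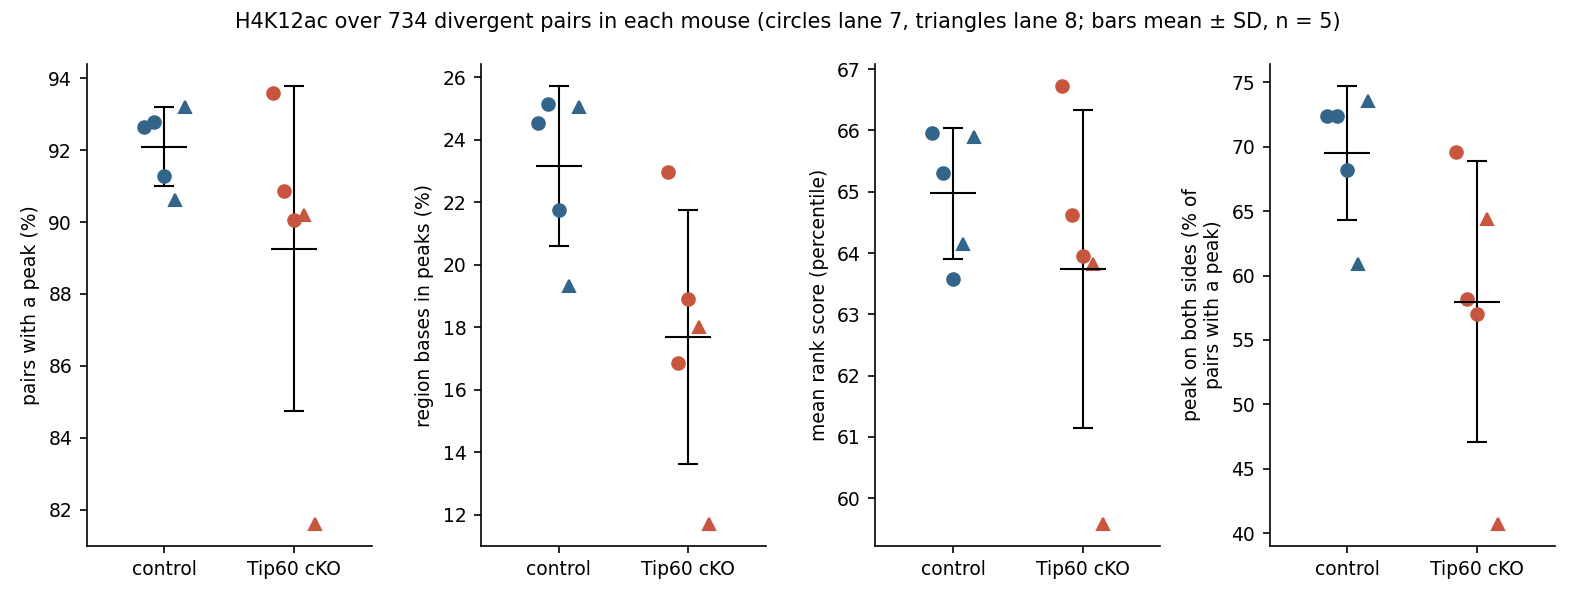
Share of pairs with a peak (%), share of region bases in peaks (%), mean rank score (percentile) and share of pairs with a peak on both sides (% of pairs with a peak) in each mouse. Circles are lane 7, triangles lane 8, bars mean ± SD of 5 mice, and the lowest triangle of *Tip60* cKO in each panel is replicate 5.

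Coverage of single pairs was compared between genotypes by limma over the 12690 promoter regions that had peaks in 2 or more lists, with Benjamini-Hochberg adjustment over all of them and a threshold of 0.05. Of 702 pairs, 16 were lower in *Tip60* cKO and 0 were higher. Among all regions, 2.25% were lower (286) and 0.0315% higher (4), so that the share of lower pairs, 2.28%, was near the background. At an unadjusted p below 0.05, 185 pairs (26.4%) were lower and 1 (0.142%) was higher, beside 24.5% and 0.772% of all regions. Every *Tip60* cKO mouse was below every control at 52 of 702 pairs (7.41%), against 5.83% of all regions, and at 13 of the 16. The reverse held at 0 pairs, against 0.11% of all regions.

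*Pus7l*/*Irak4*, a pseudouridine synthase gene beside a kinase of Toll-like receptor signalling, had 15.6, 20.2, 21.6, 24.7 and 25.3% of its region in peaks in control mice and 0, 6.22, 6.30, 6.66 and 8.30% in *Tip60* cKO. All *Tip60* cKO mice were below all controls, and the *Pus7l* side went from 21.4% to 0%. The difference was -16 ± 2.76 percentage points (SE, limma adjusted p = 0.0140). *Nop16*/*Higd2a* joins a nucleolar protein of ribosome assembly to an assembly factor of the respiratory chain. It had 18.2, 23.7, 26.7, 32.6 and 39.0% in controls and 0, 0, 4.76, 7.72 and 13.3% in *Tip60* cKO, a difference of -22.9 ± 3.96 percentage points (SE, limma adjusted p = 0.0140). The *Higd2a* side had 46.6% in controls and 5.23% in *Tip60* cKO, and the *Nop16* side had 11% and 5.37%.

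At *Fam229b*/*Tube1*, which includes the gene of epsilon-tubulin, coverage was 19.9, 22.5, 23.1, 25.1 and 27.3% in controls and 0, 5.73, 6.97, 6.99 and 14.1% in *Tip60* cKO (difference -16.8 ± 2.98 percentage points, SE, limma adjusted p = 0.0141). Its rank score was 71.1 ± 11.5 and 56.5 ± 31.9 and did not pass the threshold. *Ccpg1os*/*Ccpg1*, the latter a receptor for autophagy of the endoplasmic reticulum, had 30.1, 34.5, 34.9, 35.3 and 39.1% in controls and 12.4, 12.8, 13.1, 16.5 and 25.2% in *Tip60* cKO (difference -18.8 ± 3.43 percentage points, SE, limma adjusted p = 0.0163). Both pairs kept the genotypes apart in every mouse.

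*Ndufa5*/*Asb15*, with a subunit of complex I, had 24.3, 24.9, 28.4, 36.2 and 42.1% in controls and 5.08, 9.68, 9.90, 10.2 and 19.0% in *Tip60* cKO (limma adjusted p = 0.0194). *Coa5*/*Unc50*, with an assembly factor of cytochrome c oxidase, had 30.3, 34.6, 36.2, 37.8 and 41.1% in controls and 5.65, 11.9, 16.8, 22.2 and 23.8% in *Tip60* cKO (limma adjusted p = 0.0211). Mean rank scores were 64.5 ± 7.07 and 64.6 ± 12.6 at *Ndufa5*/*Asb15*, and 64.3 ± 11.6 and 75.1 ± 9.74 at *Coa5*/*Unc50*.

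The other pairs lower in coverage included *Bloc1s3*/*Trappc6a*, both of membrane trafficking (38.4 ± 3.09% and 19.9 ± 6.85%, limma adjusted p = 0.0266), and *BC055324*/*Mettl18*, with a histidine methyltransferase (15.2 ± 4.78% and 2.26 ± 3.15%, limma adjusted p = 0.0280). *Polr3a*/*Rps24*, the largest subunit of RNA polymerase III and a ribosomal protein, had a peak in 5 control and 2 *Tip60* cKO lists. *Emc10*/*Fam71e1*, among the 5 strongest pairs in controls, went from 44.2 ± 8.30% to 24 ± 8.47%. The remaining members were *Bag4*/*Lsm1*, *Pdap1*/*Bud31*, *BC005624*/*Usp20*, *Sept10*/*Sowahc*, *Xab2*/*Pet100* and *Lrwd1*/*Alkbh4*. The 5 pairs with the smallest p among those with higher mean coverage did not pass, led by *Odf3l1*/*Cspg4* (2.72 ± 3.73% in controls and 13.6 ± 9.10% in *Tip60* cKO, limma adjusted p = 0.102), *Prr11*/*Ska2*, *Tatdn3*/*Nsl1*, *Arsk*/*Ttc37* and *Gpc2*/*Stag3* (limma adjusted p = 0.236 to 0.314).

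The number of lower pairs moved with single libraries. It was 2 without *Tip60* cKO replicate 2, 5 without *Tip60* cKO replicate 5, 7 without *Tip60* cKO replicate 4, 6 without control replicate 1 and 5 without control replicate 2 or control replicate 5, but 84 without *Tip60* cKO replicate 1 and 58 without control replicate 4. It was 12 without *Tip60* cKO replicate 3 and 15 without control replicate 3. The count over all regions moved with it, from 286 to between 36 and 91 in the fits with 7 or fewer pairs, to 214 and 171 in those with 12 and 15, and to 1132 and 840 in those with 84 and 58. In each lane alone it was 0, in fits that hold too few mice for the absence of calls to be read. With no minimum number of lists with a peak it was 3, *Pus7l*/*Irak4*, *Fam229b*/*Tube1* and *Ccpg1os*/*Ccpg1* (limma adjusted p = 0.0425, 0.0492 and 0.0361), and the limma adjusted p of the other 13 was 0.0595 to 0.144, with 0.0719 at *Nop16*/*Higd2a*, 0.0797 at *Ndufa5*/*Asb15* and 0.0704 at *Coa5*/*Unc50*. With the same number of peaks taken from each library, 29 pairs were lower and 0 higher, beside 472 and 21 of all regions, and 10 of the 16 pairs were among the 29.

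**Figure D4:**
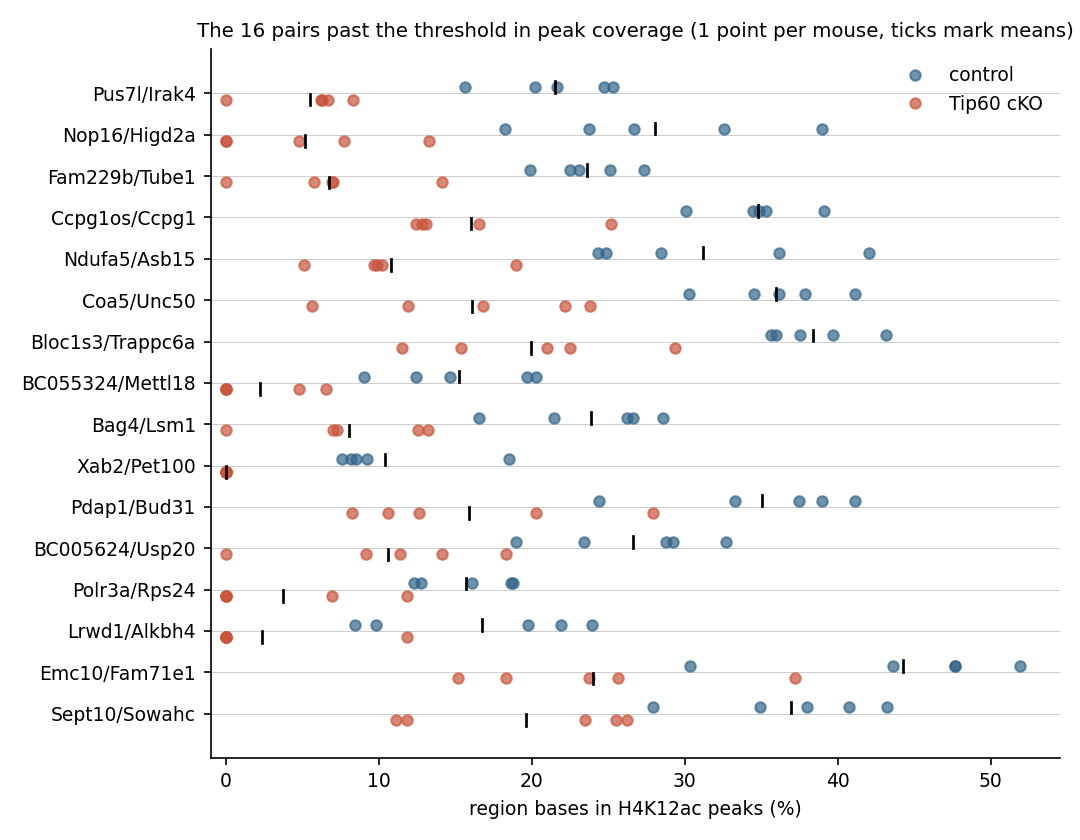
Share of region bases in H4K12ac peaks (%) at the 16 pairs past the threshold in peak coverage, 1 point per mouse with a tick at the mean of each genotype. At 13 of the 16 pairs every *Tip60* cKO mouse lies below every control.

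In rank score 4 pairs were lower and 3 higher in *Tip60* cKO by limma with Benjamini-Hochberg adjustment, of 702 tested. Among all regions, 0.26% were lower (33 of 12690) and 0.378% higher (48), beside 0.57% and 0.427% of the pairs. At an unadjusted p below 0.05, 54 pairs (7.69%) were lower and 47 (6.7%) higher, beside 7.77% and 5.99% of all regions. Every *Tip60* cKO mouse lay below every control at 12 pairs (1.71%, beside 1.63% of all regions) and above every control at 15 (2.14%, beside 1.99% of all regions). The median difference was -0.895 percentiles over the 702 pairs and -0.852 over all regions. A peak was found in at least 4 more lists of controls than of *Tip60* cKO at 3 pairs (0.427%, beside 0.544% of all regions), *Xab2*/*Pet100*, *Lrwd1*/*Alkbh4* and *Zfpl1*/*Cdca5*, of which the last is named from its values, and the reverse at 0 pairs (beside 0.134% of all regions).

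*Lrwd1*/*Alkbh4*, whose first gene encodes a partner of the origin recognition complex, had scores of 64.2, 65.0, 65.0, 71.9 and 77.8 in control mice and 0, 0, 0, 0 and 46.8 in *Tip60* cKO (difference -59.4 ± 10, SE, limma adjusted p = 0.0275). A peak was thus present in 5 control lists and in 1 *Tip60* cKO list, that of replicate 1. *Xab2*/*Pet100* was the only pair with a peak in every list of 1 genotype and in none of the other. *Xab2* acts in splicing and transcription-coupled repair and *Pet100* in the assembly of cytochrome c oxidase. Its scores were 43.2, 46.8, 47.1, 51.8 and 70.5 in controls and 0 in each *Tip60* cKO mouse (difference -51.9 ± 9.57, SE, limma adjusted p = 0.0297). This pair and *Lrwd1*/*Alkbh4* met the minimum of 2 lists with a peak through the controls alone. With no such minimum the limma adjusted p of the rank score was 0.0606 at *Xab2*/*Pet100* and 0.145 at *Lrwd1*/*Alkbh4* (0.0740 at *Hras*/*Lrrc56*), and with a minimum of 5 lists it was 0.120 and 0.0320 at the first 2. In coverage, with no minimum, the limma adjusted p was 0.0704 and 0.144. The control peaks of *Xab2*/*Pet100* were low, with pileups (fragments stacked at the summit) of 13, 15, 16, 19 and 26.

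*Hras*/*Lrrc56*, with the gene of the HRAS GTPase, scored 83.8, 85.2, 93.3, 94.2 and 95.8 in controls and 47.2, 58.7, 61.2, 67.2 and 77.4 in *Tip60* cKO (difference -28.1 ± 5.75, SE, limma adjusted p = 0.0425). The *Hras* side went from 48.1% to 25.1% in peaks, while the *Lrrc56* side had 14.8% and 16.2%. *Zcchc17*/*Snrnp40*, the latter a protein of the U5 snRNP of the spliceosome, scored 70.6, 81.2, 88.6, 90.8 and 93.0 in controls and 53.9, 56.3, 57.7, 58.2 and 66.3 in *Tip60* cKO (difference -26.4 ± 5.66, SE, limma adjusted p = 0.0476). At both pairs the scores of the genotypes did not overlap. The pileup was lower as well, with means going from 36.4 to 21.0 at *Hras*/*Lrrc56* and from 34.2 to 19.0 at *Zcchc17*/*Snrnp40*. The pileups of the genotypes overlapped at *Hras*/*Lrrc56* (26 to 44 in controls and 14 to 28 in *Tip60* cKO) and not at *Zcchc17*/*Snrnp40* (29 to 41 and 13 to 26). Next in this direction was *Hnrnpdl*/*Enoph1* (94.5 ± 2.79 and 79.2 ± 5.34), which did not pass (limma adjusted p = 0.0567).

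The 3 pairs with a higher score had overlapping pileups in both genotypes. The median pileup over all pairs was 27.6 ± 3.36 in controls (22 to 30) and 22.6 ± 4.10 in *Tip60* cKO (16 to 27), and these ranges overlapped as well. Pileup is a raw height that depends on library depth. *Nmnat1*/*Lzic*, with the nuclear enzyme of NAD synthesis, scored 51.0, 63.0, 64.9, 70.5 and 71.9 in controls and 90.4, 91.6, 92.7, 92.9 and 94.5 in *Tip60* cKO (difference 28.1 ± 4.78, SE, limma adjusted p = 0.0275). Its mean pileup was 33 and 33.2, while the local background, as a multiple of the genome-wide background of the library, was 1.59 in controls and 1.11 in *Tip60* cKO. *Larp7*/*Zgrf1*, whose first gene stabilises the 7SK RNA that restrains transcription elongation, scored 52.2, 54.2, 55.7, 57.3 and 60.9 in controls and 81.2, 82.6, 82.8, 84.0 and 87.1 in *Tip60* cKO (difference 27.5 ± 4.94, SE, limma adjusted p = 0.0287). Its mean pileup was 26.2 and 26, and its local background 1.44 and 1.0.

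*Asl*/*Crcp* pairs argininosuccinate lyase of the urea cycle with a subunit of RNA polymerase III. Its scores were 49, 56.2, 56.8, 64.1 and 67.0 in controls and 79.9, 82.6, 84.0, 90.1 and 99.1 in *Tip60* cKO (difference 28.5 ± 5.61, SE, limma adjusted p = 0.0363), with mean pileups of 29.6 and 29.2 and a local background of 1.54 and 1.04. *Dhx38*/*Txnl4b*, both of pre-mRNA splicing, and *Elp4*/*Immp1l* followed without passing (limma adjusted p = 0.0544 and 0.0743). Over all pairs the local background at the strongest peaks was 1.12 to 1.14 times the genome-wide background in the 5 controls and 1.06 to 1.08 times in the 5 *Tip60* cKO libraries, which did not overlap. The same held at other protein-coding promoters, with 1.10 to 1.12 and 1.05 to 1.07 times. Each genotype had its own input, shared by its 5 libraries, so the background values within a genotype are not independent. The limma p-values of the rank score treat the libraries as independent and do not account for the shared input. When regions were ranked by pileup in place of fold enrichment, 0 of the 4 lower and 0 of the 3 higher pairs passed, as did 0 regions of the whole table. The directions stayed. Ranked by pileup, the differences were -50.6 at *Lrwd1*/*Alkbh4*, -50.3 at *Xab2*/*Pet100* and -21.2 at both *Hras*/*Lrrc56* and *Zcchc17*/*Snrnp40*. At the higher pairs they were 12.5 at *Nmnat1*/*Lzic*, 14 at *Larp7*/*Zgrf1* and 13.2 at *Asl*/*Crcp*.

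**Figure D5:**
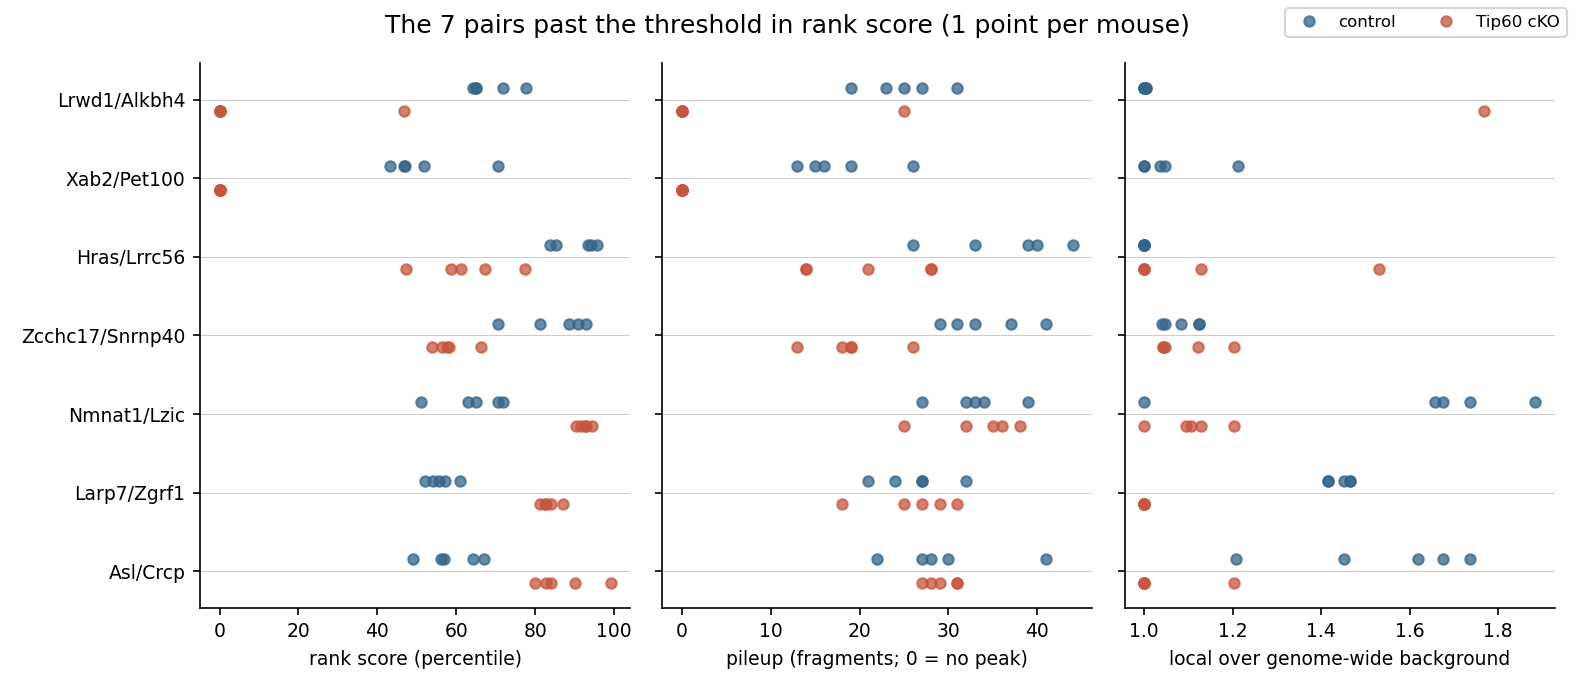
Rank score (percentile), pileup at the strongest peak (0 where no peak was called) and local over genome-wide background (no point where no peak was called) at the 7 pairs past the threshold in rank score, 1 point per mouse. At the 3 higher pairs the pileups of the genotypes overlap while the background is mostly higher in controls.

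The counts of rank calls also moved when single libraries were left out. The count of 4 lower pairs became 0 without control replicate 1, 2, 3 or 4 or without *Tip60* cKO replicate 2 or 4, 1 without control replicate 5 or *Tip60* cKO replicate 1 and 2 without *Tip60* cKO replicate 5. The count of 3 higher pairs became 0 without control replicate 1, 2 or 3 or without *Tip60* cKO replicate 1, 2 or 4, and 1 without control replicate 4. The counts over all regions fell with them, from 33 lower to 0 to 5 (18 without *Tip60* cKO replicate 5) and from 48 higher to 0 to 16. Without *Tip60* cKO replicate 3, 3 pairs were lower and 4 higher, beside 22 and 25 of all regions. Without replicate 5 of either genotype 2 pairs were higher. The differences themselves moved less, from -31.9 to -24.3 at *Hras*/*Lrrc56* and from 25.5 to 30.6 at *Asl*/*Crcp* with 1 library left out. Neither lane alone gave a call in either direction, but these fits hold too few mice for the absence of calls to be read. In lane 8 (replicates 4 and 5) the differences were -65.0 at *Lrwd1*/*Alkbh4* and 34.3 at *Asl*/*Crcp*, with a limma adjusted p of 0.567 at both.

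Grouped by function, pairs with mitochondrial genes carried peaks most often, and clustered histone genes least. Of 45 pairs with a gene of the mitochondrial ribosome, import or respiratory chain, 40 (88.9%) had a peak in all lists, beside 74.4% of all pairs. The groups were made from gene name patterns and are not complete. *Coa5*/*Unc50*, *Nop16*/*Higd2a* and *Xab2*/*Pet100*, described with assembly factors of the respiratory chain, are outside this one. *Xab2*/*Pet100* is also outside the groups of DNA repair and splicing. Groups may also hold genes that match by name alone, such as *Camkmt* of *Prepl*/*Camkmt* under synapse and neuronal signalling. Calls in each group stand against 2.25% of all regions lower in coverage, and 0.26% lower and 0.378% higher in rank score, and counts of 1 or 2 pairs show nothing particular to a group. Of the 45 listed pairs, 1 was lower in coverage (*Ndufa5*/*Asb15*) and 0 changed in rank score. Their median rank score was 75 in controls and 73.1 in *Tip60* cKO. The 3 further pairs named here all had higher mean scores in *Tip60* cKO, and none passed. *Sdhd*/*Timm8b*, a subunit of complex II with an import chaperone, had scores of 58.6 ± 5.71 and 80.1 ± 6.61 (limma adjusted p = 0.101). *Fam126b*/*Ndufb3* had 79.0 ± 6.11 and 92.0 ± 7.0, and *Ptcd2*/*Mrps27* 70.0 ± 5.20 and 84.5 ± 9.66.

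Of 14 pairs of clustered histone genes, 5 had a peak in all lists. Replication-dependent histone genes are known for S phase expression, and most neurons no longer divide. Their median rank score was 54.7 in controls and 42.4 in *Tip60* cKO, beside 68.5 and 69.1 over all pairs. The changes went both ways and none passed either test. *Hist1h2bq*/*Hist1h2ao* had 60.4 ± 10.8 and 78.9 ± 10.6, *Hist1h2bl*/*Hist1h2ai* 55.9 ± 5.98 and 72.9 ± 12.0, and *Hist1h2ac*/*Hist1h2bc* 48.9 ± 4.36 and 30.8 ± 28.5. Histone genes are near copies of each other, so that reads may be assigned among them with error.

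Of 41 pairs with a gene of DNA replication or repair, 26 had a peak in all lists, and the median coverage was 14.5% in controls and 11.2% in *Tip60* cKO, beside 22.2% and 16.3% over all pairs. Of the 41 listed pairs 0 passed either test. *Pole3*/*4933430I17Rik*, with a subunit of DNA polymerase epsilon, scored 64.9 ± 5.96 and 86.3 ± 7.77 (limma adjusted p = 0.0797). *Toe1*/*Mutyh*, with a glycosylase of base excision repair, scored 58.9 ± 9.55 and 82.8 ± 7.87, and *Xrcc3*/*Zfyve21*, with a gene of homologous recombination, 76.8 ± 8.91 and 58.1 ± 7.86.

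Among 46 pairs listed under splicing and RNA processing, 34 had a peak in all lists, 1 was lower in rank score (*Zcchc17*/*Snrnp40*) and 2 were lower in coverage (*Nop16*/*Higd2a* and *Bag4*/*Lsm1*). Of 22 pairs of translation, 14 had a peak in all lists and 1 was lower in coverage (*Polr3a*/*Rps24*, also counted among 36 pairs of chromatin and transcription). *Eif3i*/*Tmem234*, with a translation initiation factor, scored 69.3 ± 11.4 and 86.7 ± 8.81, and *Med22*/*Rpl7a*, with a ribosomal protein, 72.9 ± 13.6 and 56.8 ± 5.73. Of the chromatin and transcription pairs 26 had a peak in all lists. *Ptcd3*/*Polr1a*, the latter the largest subunit of RNA polymerase I, had a peak in 5 control and 2 *Tip60* cKO lists, and *Gtf2f1*/*Gm17949* scored 74.8 ± 7.18 and 90.2 ± 7.27.

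Of 40 pairs with a gene of the ubiquitin system, 30 had a peak in all lists and 1 was lower in coverage (*BC005624*/*Usp20*, with a deubiquitinase, 26.6 ± 5.41% and 10.6 ± 6.84%). *Nabp2*/*Rnf41* scored 71.3 ± 3.79 and 87.0 ± 2.46, and *Cep44*/*Fbxo8* 69.8 ± 6.80 and 82.7 ± 6.78, and neither passed. The 7 pairs of synapse and neuronal signalling had the highest median coverage of these groups, 31.9% in controls and 26% in *Tip60* cKO, and 0 passed. *Cdk5*/*Slc4a2*, with a neuronal kinase, had 40.7 ± 3.12% and 26 ± 7.10% of its region in peaks (limma adjusted p = 0.0565). *Nlgn2*/*Tmem256*, with an adhesion protein of inhibitory synapses, had 53.1 ± 15.9% and 36.4 ± 12.3%, and *Cfap52*/*Stx8* 9.98 ± 1.21% and 6.66 ± 1.68%.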

How the data were processed

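H4K12ac ChIP-Seq was analysed from 10 peak lists, 1 per mouse. The authors mapped reads to mm10 with STAR, removed duplicates with samtools and ran MACS (2.1.0.20140616 per the file headers) on every library separately at q below 0.1, with the input of the genotype as control. The deposited pileup is a signal, the deposited fold enrichment a ratio to the local background, and the deposited p-value and q-value are given as −log10. The authors' differential binding analysis of reads was not repeated, since reads were not used here. As depth sets how many peaks pass, precision is the spread of 5 mice.

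The members, gene lists and motifs were chosen with earlier results of these data known. A peak counted with 1 base of overlap. Coverage and rank score were compared with limma 3.58.1 (R 4.3.3, lmFit and eBayes with trend, 5 against 5 libraries, Benjamini-Hochberg), after tests on simulated data. There the rank test recovered 0% of regions lowered by 10 or 20 percentiles and 41% of those lowered by 40. The coverage test recovered 0%, 71.5% and 99% of regions lowered by 10, 20 and 40 percentage points. Pairs that did not pass can therefore not be read as unchanged. Local background was computed from pileup and fold enrichment. Genes came from GENCODE M21, sequence from the RefSeq copy of GRCm38, on which 0 of 1126669 peak ends lay beyond a chromosome end. Lanes were read from the names of the deposited libraries, and Python 3.11.15 was used. Pairs named by rule are up to 8 past the threshold per test and direction (the 5 with the smallest p where fewer than 5 passed), well-known pairs, the 5 strongest, the 5 most unequal, the first 5 without a peak, pairs at the distance limit and 3 per group by the p of the rank score. *Bag4*/*Lsm1*, *Pdap1*/*Bud31*, *Sept10*/*Sowahc* and *Zfpl1*/*Cdca5* were named after their values were seen. The alternatives were other peak sets, regions, filters, models and left-out libraries.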

Additional observations from a re-analysis of the deposited data

Results flagged for a closer look

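Among 102 groups of 5 values, 4 held a value whose gap to the nearest other, divided by the range of the group, exceeded 0.71, and chance gives about 1 in 20 such groups. *Lrwd1*/*Alkbh4* had a rank score of 46.8 and 11.8% of its region in peaks in *Tip60* cKO replicate 1, and 0 in the other *Tip60* cKO mice. *Pus7l*/*Irak4* had 0% in peaks in *Tip60* cKO replicate 5, against 6.22 to 8.30% in the others, and that library had the fewest tags. *Xab2*/*Pet100* had 18.5% in control replicate 2, against 7.58 to 9.24% in the other controls.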

How the results depend on the processing

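The count of 4 pairs lower in rank score became 2 with the same number of peaks per library, with the plain prior of eBayes or with no filter on regions, 1 where peaks in 5 or more lists were required and 0 with the ranking by pileup, in the table of all annotated autosomal genes and in each lane alone. Of the 4 pairs, 1 was among the 2 with the same number of peaks and 1 among the 2 with no filter. Over all regions 33 became 23, 26, 27, 6, 0, 4 and 0 in the same order, and leaving out 1 library gave 0 to 3 pairs and 0 to 22 regions. The count of 3 higher pairs became 0 with the ranking by pileup, in each lane alone and by presence in at least 4 more lists, and leaving out 1 library gave 0 to 4. Over all regions 48 became 0, 0 and 17, and 0 to 31 with a library left out. The count of 16 pairs lower in coverage became 29 with the same number of peaks per library, 41 with lane as a covariate, 25 where peaks in 5 or more lists were required, 3 with no filter, 3 by presence in at least 4 more lists, which is not a coverage test, and 0 in each lane alone, and leaving out 1 library gave 2 to 84. Over all regions, 286 became 472, 630, 326, 73 or 69, then 5 in lane 7 and 0 in lane 8, and 36 to 1132 with a library left out. The causes were not tested. With a replicate block all 3 counts of pairs were 0, beside 14 regions lower in coverage and 0 changed in rank score. Same-numbered mice shared a sequencing lane as well as a number, and no label ties them further. Their deviations correlated by -0.0187 to 0.0726 in rank score and by -0.127 to 0.134 in coverage. In rank score 2 of 5 *Tip60* cKO mice correlated best with their own number, and in coverage 1 of 5. With lane as a covariate, 3 pairs were lower and 3 higher in rank score. Coverage differed by -9.16 percentage points with a flank of 1 kb, where the windows hold less flanking sequence, and by -6.79 to -3.98 with a library left out. The rank score of all pairs differed by -3.32 in lane 8 and by -1.98 to -0.200 with a library left out. Presence differed by -3.92 to -0.920, peaks on both sides by -14.4 to -7.20 and single peaks over both starts by -5.63 to -3.30. No pair gained coverage at the threshold in any alternative (0 by limma, 1 at an unadjusted p below 0.05 in the fit reported). Of the differences at single pairs, 103 of 175 in rank score and 155 of 384 in coverage lost significance. Their sign changed in 0, which is no test of stability. The pairs had been picked for their differences, and the replicate block, lane covariate, plain prior and filters leave the size of a difference as it was.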
